A study of Mus musculus with 18 samples.

Results

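Clustered protocadherins are cell-surface adhesion proteins encoded by the Pcdha, Pcdhb and Pcdhg gene clusters. In Pcdha and Pcdhg, each large variable exon has its own promoter and is spliced to constant exons shared by the whole cluster, whereas Pcdhb genes have a single large coding exon each. In many neurons, a few of these alternate genes are chosen per cell by promoter choice that involves CTCF, cohesin and DNA methylation, and the combination gives the cell a surface identity used in self-recognition of dendrites and axons. The C-type genes (Pcdhac1, Pcdhac2, Pcdhgc3, Pcdhgc4 and Pcdhgc5) lie at the ends of Pcdha and Pcdhg and are not chosen in this way. Spinal neurons need Pcdhg for survival, a role for which Pcdhgc4 is best known.

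The members were the genes of the deposited count tables whose Entrez identifier maps to a mouse symbol beginning with Pcdha, Pcdhb or Pcdhg. There were 58 of 27179 genes, 14 in Pcdha, 22 in Pcdhb and 22 in Pcdhg. In the GRCm38 (mm10) assembly, they lie on chromosome 18, Pcdha from 36930285 to 37188897, Pcdhb from 37264998 to 37521419 and Pcdhg from 37661775 to 37841873. Pcdhgb8 is annotated as a transcribed pseudogene and the other 57 as protein-coding genes.

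The 18 libraries of poly(A) RNA came from mouse embryonic stem cells differentiated as embryoid bodies with retinoic acid (RA) and the Hedgehog agonist SAG, with 3 libraries from independent differentiations in each of 6 groups. Day 2 progenitors came from an Ainv15 line labeled iCre, collected on day 2 of RA and SAG and without Dox. The iHoxc6 line without Dox, on day 4, gave the control neurons. For iHoxc6, iHoxc8, iHoxc9 and iHoxc10 neurons, doxycycline (Dox, 3 µg/ml) was present for the 48 h before collection on day 4 and switched on 1 Flag-tagged Hox transgene in each isogenic line. Sequencing runs followed the groups: iHoxc6 was sequenced together with control, iHoxc9 together with iHoxc10, and day 2 progenitors and iHoxc8 neurons apart from all others. Hence run and group cannot be told apart except in iHoxc6 against control and iHoxc9 against iHoxc10, and the line is shared only in the former. Every iHox group had Dox and control had none, so Dox and the transgene cannot be told apart in any comparison with control. The iHox comparisons all share the same 3 control libraries.

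Total counts ranged from 24498630 to 33168533 per library, and levels are given as CPM, read counts relative to library size. In these units, 3 counts corresponded to 0.0904 to 0.1225 CPM. This limit covers counting error only. Each induced Hox gene was highest in its own line, from 224.3 ± 11.2 CPM (SD, n = 3) for Hoxc9 in iHoxc9 to 514.4 ± 16.2 CPM for Hoxc6 in iHoxc6. Hoxc6 was also at 47.31 ± 3.602 CPM in iHoxc10 neurons, against 3.18 ± 1.77 CPM in control neurons. Library sizes were TMM-scaled, and the 8 neuron markers and 6 motor neuron markers listed for the check of cell type were all called higher in control neurons than in day 2 progenitors. Of the pluripotent cell markers, Pou5f1 and Nanog had no count in any control library.

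How reads were counted limited the members unequally. Identical stretches of 75 bases, the read length, shared with nearly all members of a cluster made up a median of 52.4% of the exonic windows of a Pcdha gene and 42.9% of those of a Pcdhg gene, but 0% in Pcdhb. Those are the constant exons. Pcdha4 had at most 1 count in any library, so reads in the constant exons had not been added to every Pcdha gene. The annotated gene Gm37013, which overlaps the variable exon of Pcdha4, was at 0 in all 18 libraries. Whether Pcdha4 was not expressed or its reads were dropped in counting cannot be told from these counts. Pcdhb1 had 11 counts in all libraries together. Outside the constant exons, sharing with a few other members was highest for Pcdhgb1 (22.85% of windows) and Pcdhga4 (20.52%), whose annotated exons overlap, and counts of this pair are uncertain. Where levels are compared between genes, they are given per kilobase of exon not annotated to another member. These exon lengths came from GENCODE, whereas reads were counted on RefSeq genes, so the lengths can differ from the exons counted. For Pcdhb14, 8695 exon bases exceed its span from 37447657 to 37451094. Ranks per kilobase depend on these lengths. CPM is not corrected for length, and served between genes only to pick the 3 genes of each cluster with the most reads.

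The clusters differed in how much of their level was already present at day 2. The summed level of Pcdha was 1.92, 2.73 and 1.22 CPM in the 3 libraries of day 2 progenitors and 43.5, 37.3 and 36.0 CPM in control neurons. Pcdhb summed to 22.0, 27.8 and 13.6 CPM at day 2 and to 205.5, 187.4 and 157.9 CPM in control neurons. Pcdhg summed to 68.1, 79.1 and 100.7 CPM at day 2 and to 170.1, 213.9 and 135.0 CPM in control neurons. The libraries of these groups did not overlap in any cluster. Day 2 replicate 3 was the lowest library for Pcdha and Pcdhb and the highest of its group for Pcdhg. In the iHox lines, the summed means ran from 35.1 ± 4.51 CPM in iHoxc6 to 61.0 ± 7.08 CPM in iHoxc10 for Pcdha, from 169.2 ± 16.1 to 304.1 ± 41.9 CPM in the same lines for Pcdhb, and from 208.2 ± 7.28 CPM in iHoxc9 to 257.8 ± 15.5 CPM in iHoxc10 for Pcdhg (SD, n = 3).

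**Figure D1:**
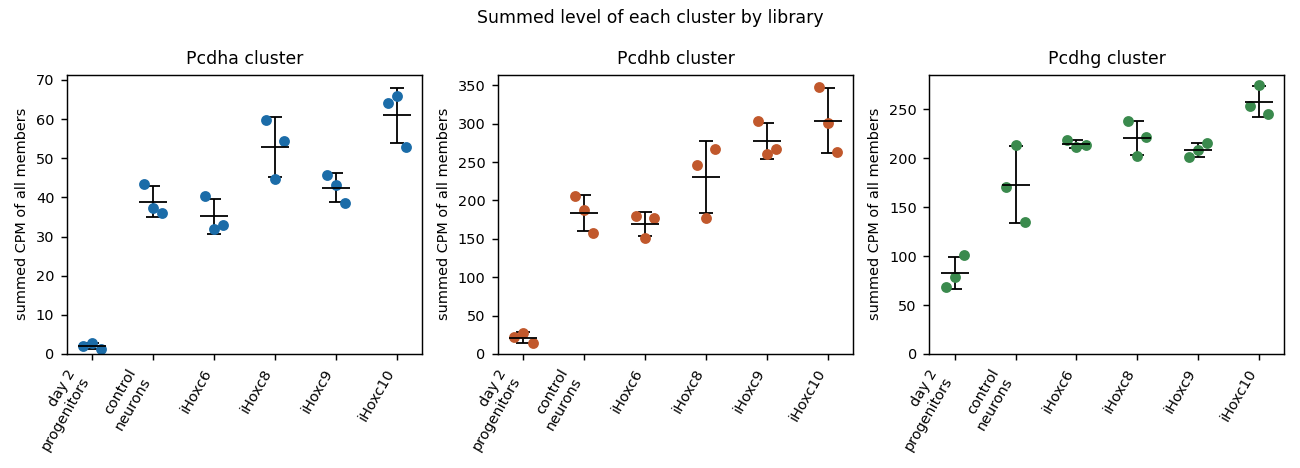
Summed CPM (y axis, from 0) of all members of each cluster in the 6 groups (x axis). Points are libraries, and the bar and whisker are the mean ± SD (n = 3). The iHoxc10 libraries lie above all control libraries in each cluster, and day 2 progenitors lie lowest, at a mean of 1.96, 21.1 and 82.6 CPM for Pcdha, Pcdhb and Pcdhg.

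More members were detected in neurons than in progenitors. A mean above 1 CPM was reached by 24 of 58 members in day 2 progenitors, 0 in Pcdha, 8 in Pcdhb and 16 in Pcdhg. It was reached by 52 members in control neurons and by 52 in each of the 4 iHox lines. The 6 members below 1 CPM in control neurons were 4 Pcdha genes (Pcdha4, Pcdha8, Pcdhac1 and Pcdhac2), Pcdhb1 and Pcdhgc5. The share of member reads that fell in Pcdhg was 72.2% to 87.2% at day 2 and 40.6% to 48.8% in control neurons.

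**Figure D2:**
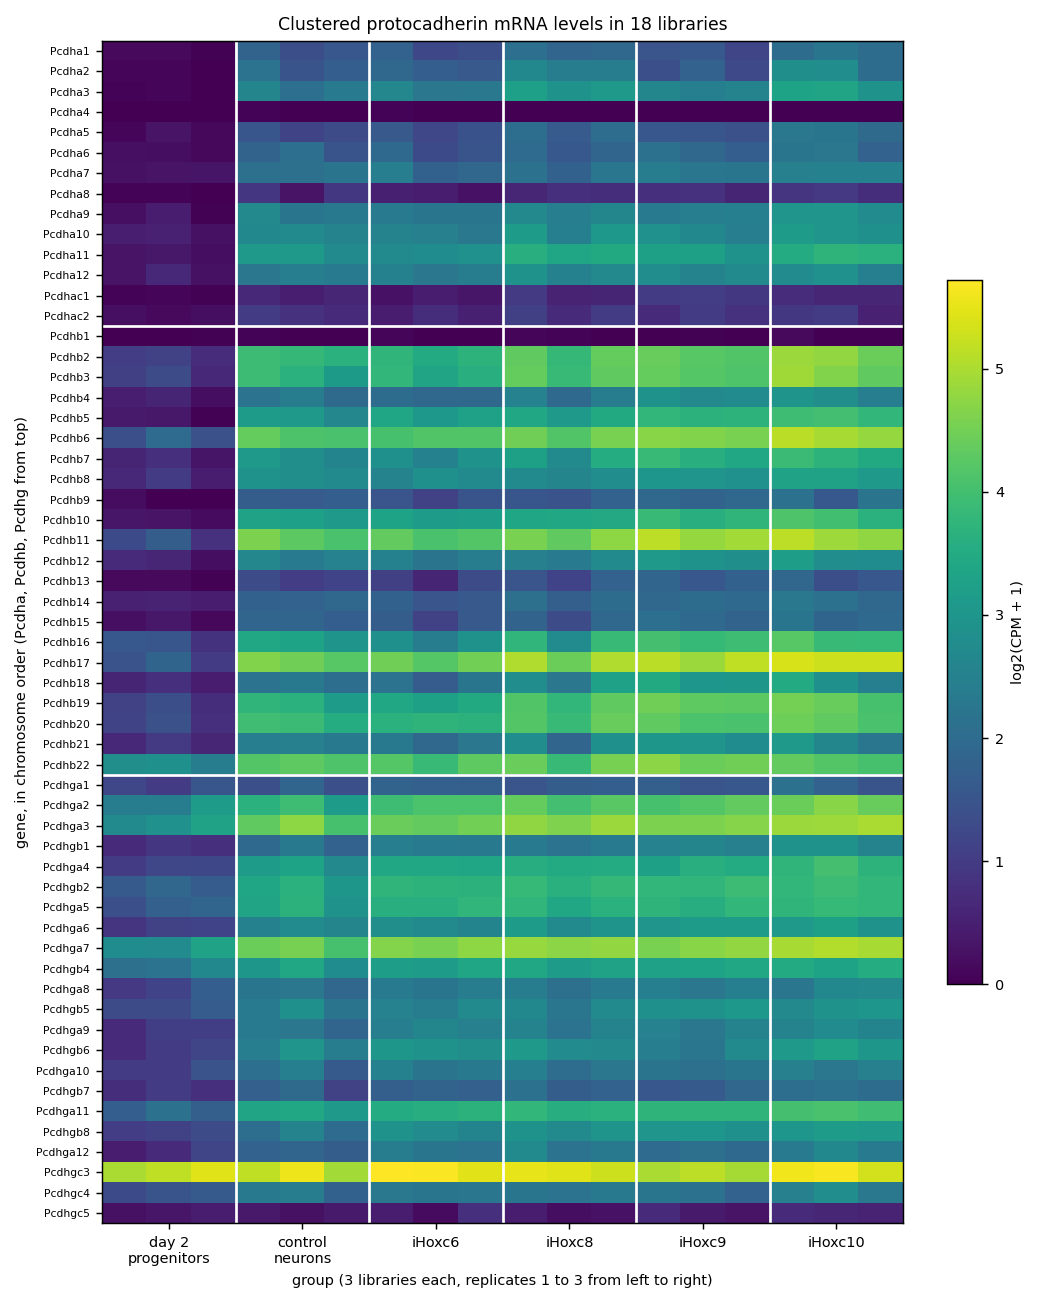
Level of each of the 58 genes (rows, in chromosome order, clusters divided by white lines) in each of the 18 libraries (columns, grouped), as log2(CPM + 1). Day 2 libraries are dark through Pcdha and most of Pcdhb, whereas Pcdhgc3 is bright in all 18 libraries; Pcdha4 and Pcdhb1 are dark throughout.

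Control neurons were compared with day 2 progenitors to ask how the clusters differ between dividing progenitors and day 4 neurons. Of the 58 members, 53 were higher and 0 lower in control neurons (edgeR quasi-likelihood test, adjusted p under 0.01), against 21.2% of the 20944 genes tested called higher and 21.2% called lower. Adding the fold threshold of the study (a log2 fold change above 2) left 39 members, against 6.74% of all genes called higher by this rule. The median log2 fold change was 4.03 over Pcdha, 3.43 over Pcdhb and 1.52 over Pcdhg, and 0 over all genes tested. With Pcdha members of at most 3 counts per day 2 library set against 3 counts, the Pcdha median was 3.92. The members that were not called were Pcdha4, Pcdhb1, Pcdhga1, Pcdhgc3 and Pcdhgc5. In a fit of these 6 libraries alone, 47 members were called.

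Alternate Pcdha genes went from near the counting limit to a few CPM. Pcdha3 had 1, 2 and 0 counts in the day 2 libraries and 159, 85 and 110 counts in control libraries, a ratio of 129 after scaling (95% exact binomial interval for counting error, 43.8 to 629). Pcdha2 had 2, 2 and 0 counts at day 2 and 109, 47 and 61 in control, a ratio of 59.4 (22.9 to 220.0). For Pcdha8 and Pcdha1 the ratios were 31.2 (8.25 to 264.0) and 26.9 (12.8 to 67.9). Each of these 4 genes was lower in every day 2 library than in every control library.

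Pcdha11, which took the most Pcdha reads without correction for length, was at 0.24, 0.30 and 0.16 CPM at day 2 and at 7.55, 7.55 and 5.58 CPM in control neurons, with a log2 fold change of 4.89 ± 0.25 (SE, adjusted p = 1.88e-13). Pcdha9 and Pcdha6 changed by 4.53 ± 0.34 and 4.11 ± 0.39 on the log2 scale. Pcdha10 was at 0.34 ± 0.13 CPM (SD, n = 3) at day 2 and at 5.31 ± 0.40 CPM in control. By GENCODE lengths, it was the highest alternate Pcdha gene per kilobase of its own exon in both groups (0.137 and 2.12 CPM per kilobase). The rank over Pcdha11 in control (1.47 CPM per kilobase) rests on 4675 own exon bases for Pcdha11 against 2499 for Pcdha10. The called Pcdha genes thus spanned log2 fold changes from 2.47 to 6.82.

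In Pcdhb, 21 of 22 genes were called higher and 20 passed the fold threshold. Pcdhb10 was at 0.27, 0.23 and 0.12 CPM at day 2 and at 8.77, 8.43 and 7.45 CPM in control neurons (log2 fold change 5.28 ± 0.24, adjusted p = 5.38e-14). Pcdhb5 was at 0.34, 0.30 and 0.03 CPM at day 2 and at 7.81, 7.59 and 5.32 CPM in control (4.95 ± 0.32, adjusted p = 1.58e-11). Pcdhb9 had 4, 0 and 0 counts at day 2 and 69, 55 and 61 in control. Each of these genes was lower in every day 2 library than in every control library.

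The 3 Pcdhb genes with the most reads, not corrected for length, had smaller fold changes than Pcdhb10 and Pcdhb5. Pcdhb17 was at 1.79 ± 0.78 CPM at day 2 and at 21.0 ± 2.96 CPM in control (log2 fold change 3.55 ± 0.24), Pcdhb11 at 1.47 ± 0.72 and 19.2 ± 3.79 CPM (3.72 ± 0.25), and Pcdhb6 at 2.10 ± 0.78 and 17.3 ± 2.05 CPM (3.04 ± 0.20; SD, n = 3 and SE). Pcdhb22, the last gene of the cluster, was at 6.06, 6.36 and 4.25 CPM at day 2 and at 17.4, 18.7 and 16.7 CPM in control, the smallest called Pcdhb change (1.66 ± 0.19). It was chosen for mention after its values were seen. It took 27.2% ± 4.15 (SD, n = 3) of Pcdhb reads in day 2 progenitors and 9.65% ± 1.09 in control neurons, and the libraries of the groups did not overlap.

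In Pcdhg, 19 of 22 genes were called higher but 6 passed the fold threshold. Pcdhga3 was at 5.56, 6.49 and 8.90 CPM at day 2 and at 19.1, 26.1 and 15.5 CPM in control neurons (log2 fold change 1.53 ± 0.18, adjusted p = 1.65e-07). Pcdhga7 was at 5.93, 5.79 and 8.84 CPM at day 2 and at 20.5, 22.4 and 15.7 CPM in control (1.51 ± 0.16, adjusted p = 5.27e-08). Both were already among the highest members per kilobase at day 2. The median log2 fold change was 1.60 for the 12 Pcdhga genes and 1.56 for the 7 Pcdhgb genes.

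**Figure D3:**
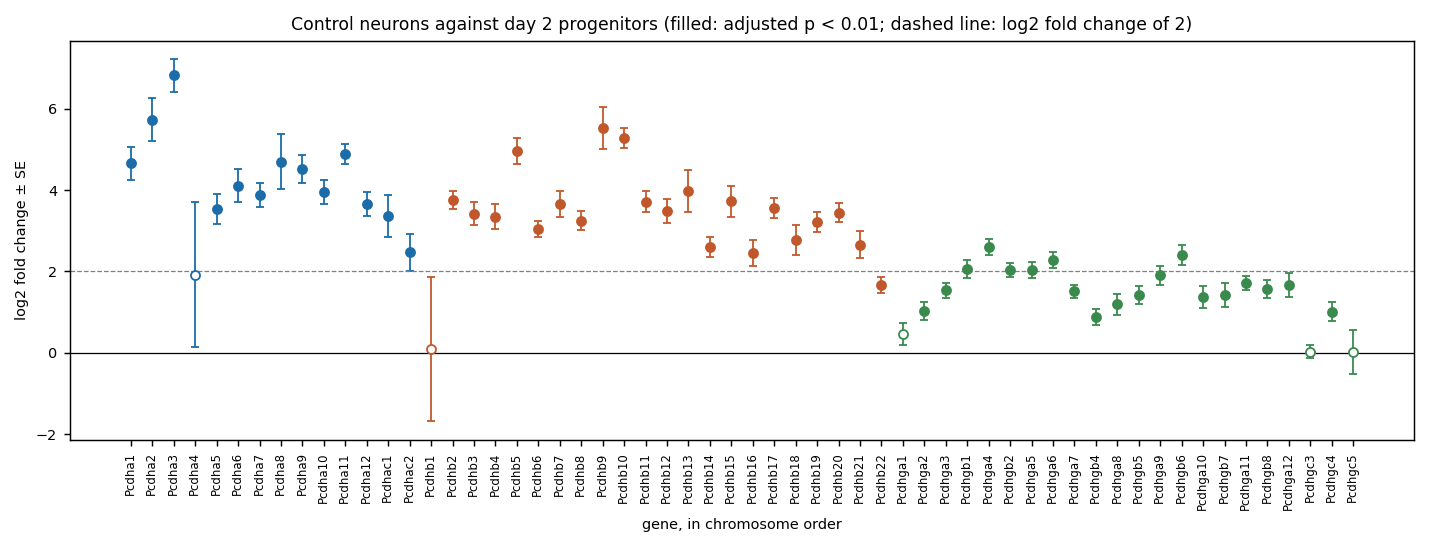
Log2 fold change ± SE (y axis) of control neurons against day 2 progenitors for each gene in chromosome order (x axis), colored by cluster. Filled points passed an adjusted p under 0.01, and the dashed line marks the fold threshold of 2. Pcdha and Pcdhb genes lie mostly above the line, most Pcdhg genes lie below it, and Pcdhgc3 and Pcdhgc5 lie at 0.03 and 0.01.

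The C-type genes followed no common course. Pcdhgc3 was at 30.7, 35.2 and 42.8 CPM at day 2 and at 35.1, 46.4 and 29.4 CPM in control neurons, and the groups overlapped (log2 fold change 0.03 ± 0.16, adjusted p = 0.945). By its mean, it was the highest member per kilobase in each group, at 10.7 ± 1.81 CPM per kilobase in day 2 progenitors and 10.9 ± 2.57 in control neurons. In iHoxc9 the lead was within the spread, at 9.42 ± 0.69 against 9.09 ± 0.35 CPM per kilobase for Pcdhga3. The share of Pcdhgc3 in Pcdhg reads was 44.0% ± 1.35 at day 2, 21.4% ± 0.67 in control and lowest in iHoxc9, at 15.3% ± 1.33 (SD, n = 3).

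Pcdhgc4 was at 1.45, 1.80 and 2.09 CPM at day 2 and at 3.95, 4.39 and 2.43 CPM in control neurons (log2 fold change 1.01 ± 0.24, adjusted p = 0.000996). The call was lost in a fit of these 2 groups alone (adjusted p = 0.0209). Pcdhac2 was called higher in control, from 0.14 ± 0.04 to 0.80 ± 0.22 CPM (SD, n = 3; 2.47 ± 0.45 on the log2 scale). Pcdhac1 rose from 4 counts over the day 2 libraries to 41 over the control libraries, a ratio of 11.2 (95% exact binomial interval 4.06 to 43.1). Pcdhgc5 stayed at 5 to 12 counts per library in both groups, too few to show a small difference (0.01 ± 0.54).

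Between day 4 groups, no C-type gene was called in any iHox line against control. The largest fitted change of a C-type gene was that of Pcdhac1 in iHoxc9, at 1.02, 1.06 and 0.92 CPM against 0.55, 0.39 and 0.52 CPM in control (log2 fold change 1.03 ± 0.33, adjusted p = 0.0256). Its iHoxc9 libraries lay above the control libraries, but the difference missed the threshold.

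**Figure D4:**
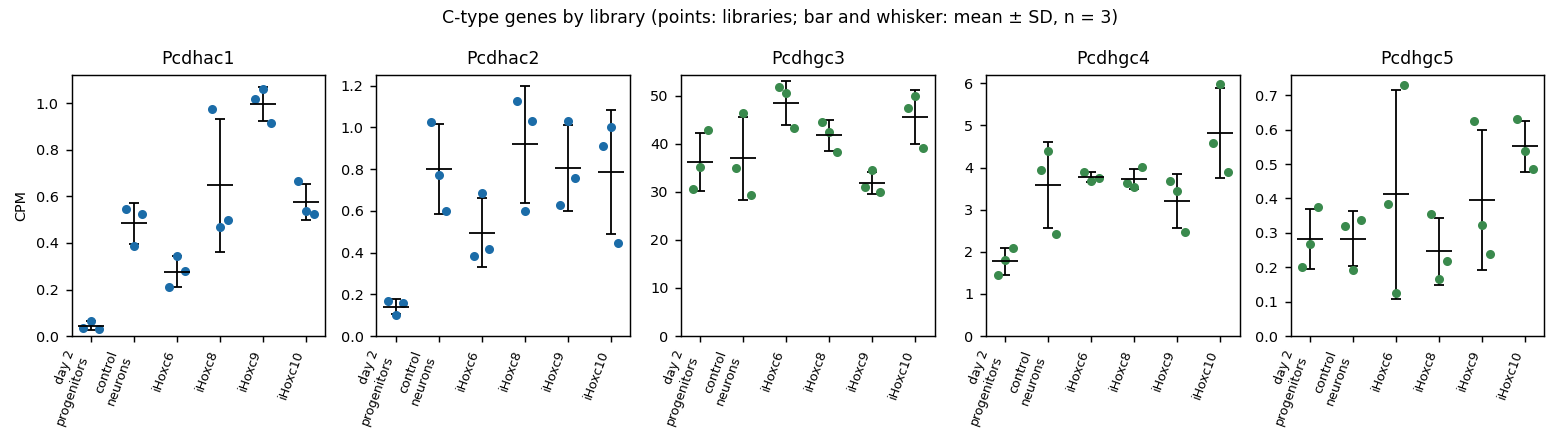
CPM (y axis, from 0, scaled separately per gene) of the 5 C-type genes in the 6 groups (x axis). Points are libraries, and bars and whiskers are the mean ± SD (n = 3). Pcdhgc3 spans 29.4 to 51.8 CPM over all groups, whereas Pcdhac1 and Pcdhac2 lie lowest in day 2 progenitors.

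The comparison of day 2 with day 4 also spans a change of cell makeup. The summed level of the 8 neuron markers was 300.4 to 614.8 CPM in day 2 libraries and 5617 to 5933 CPM in control libraries, and that of the 6 progenitor markers was 480.3 to 553.3 and 272.3 to 585.7 CPM. Of these 6, Pax6 (100.6 ± 18.5 CPM at day 2 and 8.67 ± 2.36 CPM in control; SD, n = 3), Sox1 (48.8 ± 11.5 and 9.44 ± 2.64 CPM) and Sox2 were called lower in control and 0 higher, and Nes, not called, was at 159.6 ± 8.51 and 237.4 ± 119.3 CPM. The glia markers summed to 20.1 to 30.5 CPM at day 2 and 82.9 to 102.7 CPM in control. Most of both sums came from Mbp (20.3 ± 4.88 and 85.6 ± 11.2 CPM; SD, n = 3). The endoderm and mesoderm markers summed to 25.5 to 72.3 and 21.7 to 24.6 CPM, and these sums mostly followed 1 gene, Foxa2. Foxa2 alone was at 19.7, 20.1 and 65.7 CPM at day 2 and 23.6, 21.9 and 21.2 CPM in control. The endothelium markers summed to at most 2.76 CPM in any library. Within day 2, replicate 3 was lowest for neuron markers as well as for Pcdha and Pcdhb. In these bulk samples, fewer cells of a type and less RNA per cell cannot be told apart, and the part of cell makeup in the result was not tested.

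Among the 17 genes of promoter choice and methylation, 13 were lower and 1 higher in control neurons than in day 2 progenitors. Of all genes tested, 21.2% were called lower and 21.2% higher. Ctcf, which binds protocadherin promoters and enhancers, was at 137.6 ± 14.1 CPM at day 2 and at 79.3 ± 15.6 CPM in control (SD, n = 3; log2 fold change -0.79 ± 0.14). The largest decrease was that of Dnmt3b, a de novo DNA methyltransferase, at 32.5, 29.2 and 49.4 CPM against 7.10, 13.7 and 7.22 CPM (-1.99 ± 0.24, adjusted p = 2.92e-07). The cohesin subunit Stag2, its relative Stag1 and the silencing factor Smchd1 also fell, with log2 fold changes of -1.57, -1.31 and -1.34. Wiz was the gene called higher (0.74 ± 0.20).

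Of 18 genes of protocadherin partners and effectors, 9 were higher and 1 lower in control neurons, against 21.2% and 21.2% of all genes tested. The synaptic adhesion genes Nlgn2 (log2 fold change 2.63 ± 0.14) and Nlgn1 (2.33 ± 0.32), the WAVE complex gene Cyfip2 (2.52 ± 0.14) and the receptor tyrosine kinase gene Ret (2.32 ± 0.13) changed most. Cyfip1 was called lower (-0.94 ± 0.17).

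Genes flanking the clusters did not share one course. Of 8 neighbors, Hars, Hars2, Zmat2, Diaph1, Hdac3 and Slc25a2, which lies between Pcdhb and Pcdhg, were not called. Taf7, a transcription initiation factor gene that also lies between Pcdhb and Pcdhg, was lower in control neurons than in day 2 progenitors (-1.15 ± 0.19). Rell2, on the far side of Pcdhg, was at 1.08, 1.76 and 1.97 CPM at day 2 and at 11.4, 9.67 and 12.7 CPM in control (2.81 ± 0.21, adjusted p = 1.78e-10).

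The iHoxc10 neurons had the most members called against control neurons. There were 17 higher and 0 lower, or 29.3% of members, against 6.67% of all genes called higher. The called genes were 3 in Pcdha, 8 in Pcdhb and 6 in Pcdhg, and their log2 fold changes ran from 0.66 to 1.16. None passed the fold threshold of 2, which 1.48% of all genes passed. At an unadjusted p under 0.05, 40 members (69%) were higher and 0 lower, against 16.8% and 17.8% of all genes. Of the 58 members, 55 had a positive fitted change, against 10069 of the 20944 genes tested. The median log2 fold change was 0.44 over Pcdha, 0.76 over Pcdhb and 0.57 over Pcdhg, against 0 over all genes tested.

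Pcdha5 was at 3.89, 3.69 and 2.92 CPM in iHoxc10 and at 1.90, 1.27 and 1.497 CPM in control (log2 fold change 1.16 ± 0.26, adjusted p = 0.00192). Pcdha3 was at 9.03, 9.14 and 6.72 CPM against 5.11, 3.27 and 4.12 CPM (0.99 ± 0.21, adjusted p = 0.00150). Pcdha11 was at 11.4 ± 0.90 CPM against 6.89 ± 1.14 CPM (SD, n = 3; 0.73 ± 0.17). The iHoxc10 libraries lay above the control libraries for all 3 genes.

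The largest called Pcdhb change was that of Pcdhb3, at 28.9, 24.04 and 19.0 CPM in iHoxc10 against 14.2, 11.6 and 7.75 CPM in control (1.10 ± 0.23, adjusted p = 0.00139). Pcdhb5 was at 14.5, 15.1 and 12.9 CPM against 7.81, 7.59 and 5.32 CPM (1.03 ± 0.22). Pcdhb2 was at 28.2, 26.9 and 20.7 CPM against 14.1, 13.0 and 11.6 CPM (0.97 ± 0.18, adjusted p = 0.000408). These genes lie near the start of the cluster, where Pcdhb4, between them, was not called, and Pcdhb7, Pcdhb6, Pcdhb10, Pcdhb17 and Pcdhb19 were called as well. At the end of the cluster, Pcdhb22 was at 19.4, 17.2 and 15.8 CPM, and overlapped control (-0.01 ± 0.18).

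In Pcdhg, the called genes were Pcdhga2, Pcdhgb1, Pcdhga4, Pcdhga7, Pcdhga11 and Pcdhgb8. The pseudogene Pcdhgb8 was at 7.00, 7.77 and 7.46 CPM in iHoxc10 and at 3.21, 4.93 and 2.99 CPM in control (1.00 ± 0.19, adjusted p = 0.000664). Pcdhga2 was at 20.6, 24.97 and 20.1 CPM against 11.7, 14.4 and 7.97 CPM (0.95 ± 0.21). Pcdhgb1 changed by 0.96 ± 0.20 on the log2 scale, with the uncertainty of shared reads noted above.

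The count of 17 depended on single libraries. It fell to 6 without control replicate 3, the lowest control library for all 3 clusters, and to 8 without iHoxc10 replicate 1 and to 8 without iHoxc10 replicate 2. Over all alternatives, it ranged from 0, with the fold threshold, to 25. Some neuron markers differed in this comparison. Of the 8, Map2, Rbfox3, Snap25 and Dcx were called higher in iHoxc10 and 4 were not called. Among the latter, Stmn2 had a lower mean, at 1027 ± 73.4 CPM against 1308 ± 357.5 CPM in control (SD, n = 3). The list summed to 7264 to 8248 CPM against 5617 to 5933 CPM in control. Of the progenitor markers, Olig2, Pax6 and Hes5 were called lower, and of the glia markers Mbp was called higher. Of the 6 motor neuron markers, Lhx3 and Isl2 were called lower and 4 were not called. Among the latter, Isl1 (126.7 ± 8.65 against 95.5 ± 19.4 CPM) and Slc18a3 (266.7 ± 32.7 against 224.0 ± 46.0 CPM) had higher means in iHoxc10. The list summed to 483.3 to 545.2 CPM against 542.8 to 569.4 CPM. The part of these changes in the result was not tested.

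The iHoxc9 neurons had 4 members called higher and 0 lower. This was 6.90% of members, against 6.95% of all genes called higher, so the share of calls was that of the background. None passed the fold threshold, which 2.7% of all genes passed. At an unadjusted p under 0.05, 26 members (44.8%) were higher and 0 lower, against 18.1% and 16.6% of all genes. The called genes were Pcdhb18, Pcdhb19, Pcdhb5 and Pcdhgb8. Pcdhb18 was at 10.1, 7.03 and 7.20 CPM in iHoxc9 and at 3.53, 4.00 and 3.22 CPM in control (log2 fold change 1.18 ± 0.30, adjusted p = 0.00547). Pcdhb19, the next gene along, was at 21.2, 18.8 and 18.5 CPM against 12.3, 11.5 and 7.90 CPM (0.88 ± 0.21, adjusted p = 0.00346).

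Pcdhb5 was at 12.8, 11.7 and 11.9 CPM in iHoxc9 (0.81 ± 0.22, adjusted p = 0.00956) and Pcdhgb8 at 6.96, 7.03 and 6.33 CPM (0.87 ± 0.19, adjusted p = 0.00220). The libraries of both groups were separate for all 4 genes. The median log2 fold change over Pcdhb was 0.59, with 21 of 22 genes above 0, against 10525 of the 20944 genes tested. It was 0.08 over Pcdha and 0.36 over Pcdhg. The 4 calls fell to 0 without control replicate 3 or without iHoxc9 replicate 1, to 1 without control replicate 1 or without iHoxc9 replicate 2, and to 2 without iHoxc9 replicate 3, and rose to 8 without control replicate 2.

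Markers differed here as well. Of the 8 neuron markers, Map2 and Rbfox3 were called higher in iHoxc9 and 6 were not called. Among the latter, Stmn2 had a lower mean, at 859.7 ± 37.0 CPM against 1308 ± 357.5 CPM in control (SD, n = 3). The neuron list summed to 6092 to 7130 CPM. Chat, Slc18a3, Lhx3 and Mnx1, all motor neuron markers, were called lower, and their list summed to 296.2 to 322.3 CPM. Sox2 and Sox1 were called higher and Olig2 and Hes5 lower among progenitor markers. Their part in the result was not tested.

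In iHoxc6 neurons, no member was called against control neurons by edgeR or DESeq2, and 0.587% of all genes were called. This comparison lies within 1 line and 1 run, with Dox only in iHoxc6. At an unadjusted p under 0.05, 7 members (12.1%) were higher and 2 (3.45%) lower, against 9.47% and 11.8% of all genes. All 22 Pcdhg genes had a positive fitted change (0.02 to 0.66 on the log2 scale), whereas 11 of 14 Pcdha genes and 19 of 22 Pcdhb genes had a negative one. Of the 20944 genes tested, 9301 had a positive and 10370 a negative change. Members are measured in the same libraries, so their signs are not independent observations. Summed Pcdhg in control ran from 135.0 CPM in replicate 3 to 213.9 CPM in replicate 2. Pcdhgb8 had the smallest p, at 6.69, 5.82 and 5.00 CPM against 3.21, 4.93 and 2.99 CPM in control (log2 fold change 0.66 ± 0.19, adjusted p = 0.0626). Summed Pcdhg was 219.0, 211.4 and 213.8 CPM in iHoxc6, and overlapped control replicate 2. Isl2 was the 1 motor neuron marker called lower, and no neuron or progenitor marker was called.

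In iHoxc8 neurons, no member was called by edgeR, 2 were called by DESeq2, and 2.12% of all genes were called. At an unadjusted p under 0.05, 18 members (31.0%) were higher and 0 lower, against 11.9% and 11.4% of all genes. The median log2 fold change was 0.36 over Pcdha, 0.29 over Pcdhb and 0.33 over Pcdhg, against 0.02 over all genes tested. Pcdha3 was at 8.31, 6.51 and 7.44 CPM against 5.11, 3.27 and 4.12 CPM in control, with no overlap (0.83 ± 0.21, adjusted p = 0.0189). Pcdhgb8 was at 6.54, 5.58 and 6.79 CPM (0.77 ± 0.19, adjusted p = 0.0183). Map2 was called higher, Sox2 higher, and Mnx1 and Isl2 lower among the markers.

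**Figure D5:**
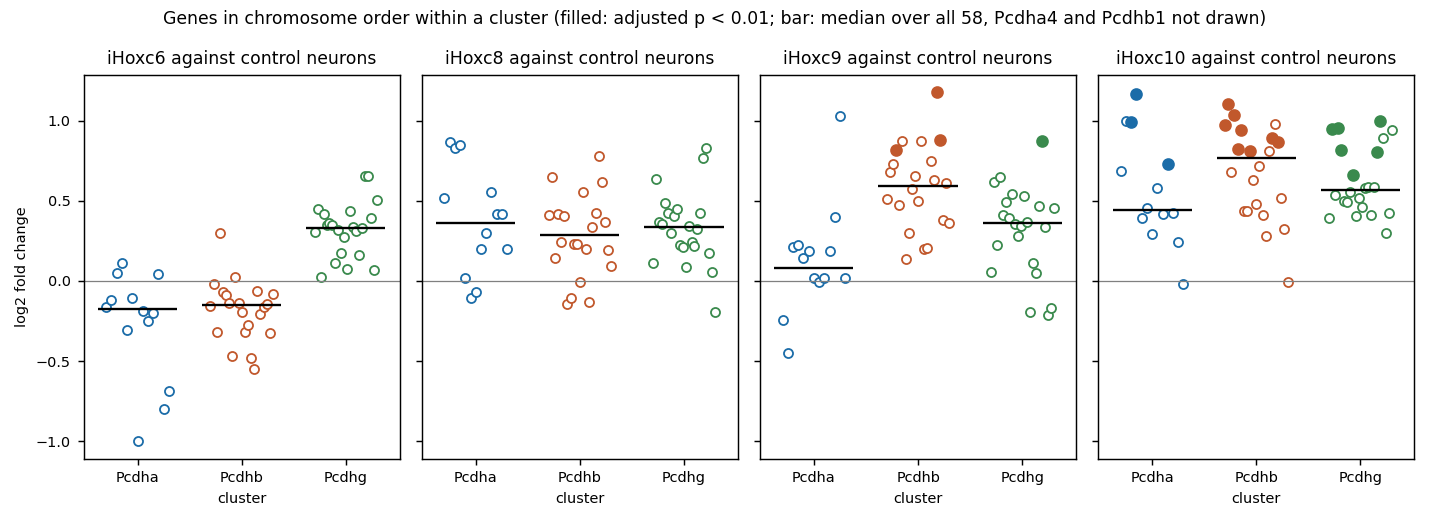
Log2 fold change (y axis) of each gene against control neurons in the 4 iHox lines (panels), by cluster (x axis) and in chromosome order within a cluster. Filled points passed an adjusted p under 0.01, bars are medians over all genes of the cluster, and Pcdha4 and Pcdhb1 are not drawn because of their low counts. There are 17 filled points in iHoxc10, 4 in iHoxc9 and none in iHoxc6 and iHoxc8.

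The iHoxc9 and iHoxc10 neurons were compared directly to ask whether the lines differ from each other. Within their shared run, 1 member was lower in iHoxc9 and 0 higher, against 2.4% of all genes called lower. Pcdha2 was at 1.64, 2.50 and 1.39 CPM in iHoxc9 and at 6.16, 6.02 and 3.04 CPM in iHoxc10, and the libraries did not overlap (log2 fold change -1.45 ± 0.30, adjusted p = 0.00264). The call was lost without iHoxc9 replicate 1 or 3 or without iHoxc10 replicate 1 or 2, with an adjusted p of at most 0.0203. Its neighbors in the cluster did not pass the threshold: Pcdha1 changed by -0.93 ± 0.26 (adjusted p = 0.0238), Pcdha3 by -0.78 ± 0.21 (adjusted p = 0.0196) and Pcdha5 by -0.94 ± 0.25 (adjusted p = 0.0197).

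Here the replicate numbers were taken to pair the libraries. The labels state no pairing, which was inferred from correlated deviations of equally numbered libraries in these same data. The number of calls rose with the pairing in a fit of these 6 libraries alone, but not in the fit of all 18 libraries. In a fit of these 6 libraries alone, 9 members were called lower, against 5.52% of all genes. When that fit also blocked on the replicate number, 24 members were called, 23 lower and 1 higher, against 13.7% of all genes called lower and 27.6% called in either direction. The lower genes were 7 in Pcdha, 6 in Pcdhb and 10 in Pcdhg, and Pcdhb22 was the gene called higher (log2 fold change 0.33 ± 0.08). With the block in the fit of all 18 libraries, 1 member was called. In the blocked fit of 6 libraries, Pcdhgc3, at 31.1, 34.5 and 30.0 CPM in iHoxc9 and at 47.6, 50.0 and 39.1 CPM in iHoxc10, was called lower, as was Pcdhgc4. In the fit of all libraries without a block, Pcdhgc3 changed by -0.52 ± 0.16 (adjusted p = 0.0464) and Pcdhgc4 by -0.59 ± 0.23 (adjusted p = 0.128).

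Markers also separated these lines: Isl1, Chat, Slc18a3 and Mnx1 were called lower and Isl2 higher in iHoxc9 among motor neuron markers, and Pax6, Sox2 and Sox1 were called higher. Of the glia markers, Sox10 and Mbp were called lower, and of the endoderm and mesoderm markers Gata6 was called higher (2.15 ± 0.37 CPM in iHoxc9 and 0.37 ± 0.11 CPM in iHoxc10; SD, n = 3). Rell2 was at 9.35, 11.2 and 9.28 CPM in iHoxc9 and at 22.2, 19.9 and 19.5 CPM in iHoxc10 (-1.05 ± 0.19), and was the flanking gene called in iHoxc10 against control (0.87 ± 0.18). The part of cell makeup in these differences was not tested.

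Some methylation and partner genes also differed between day 4 groups. Dnmt3a, a de novo DNA methyltransferase, was higher in iHoxc9 (161.1, 182.3 and 161.7 CPM against 72.4, 77.4 and 55.5 CPM in control; log2 fold change 1.298 ± 0.17) and in iHoxc10 (134.7, 144.5 and 116.6 CPM; 0.95 ± 0.17). In iHoxc9, the cohesin loader Nipbl and Smchd1 were called higher too, and the other 14 of 17 genes were not called, against 6.95% of all genes called higher. Of the 18 partner genes, 6 were higher and 1 lower in iHoxc9 and 7 higher and 1 lower in iHoxc10, where 6.95% and 6.67% of all genes were called higher. Of the 20944 genes tested, 1494 were called lower in iHoxc9 and 1624 in iHoxc10. Wasf1, a WAVE complex gene, was higher in both (0.73 ± 0.16 and 1.01 ± 0.16), and Brk1, of the same complex, was lower in both (-0.52 ± 0.13 and -0.48 ± 0.13). In iHoxc10, Nlgn2 (0.83 ± 0.14) and Ret (0.69 ± 0.12) were higher. None of the 35 genes was called in iHoxc6, in iHoxc8 or between iHoxc9 and iHoxc10, where 0.587%, 2.12% and 4.99% of all genes were called.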

How the data were processed

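Poly(A) RNA-seq of 18 libraries was analysed. The authors sequenced stranded libraries as single reads of 75 bases, aligned them with STAR (2.7.0c), used featureCounts (Rsubread) with the RefSeq annotation of mm10, and merged genes of the same Entrez identifier. They deposited raw read counts per gene. The strand and overlap settings of the counting are not given in the sources used here, so overlapping genes are uncertain.

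Counts were tested in R 4.3.3 with edgeR 4.0.16 (TMM, quasi-likelihood test) in a single model of the 6 groups. A gene entered if any iHox library held 1 count or more, which kept 20944 genes and all 58 members. P-values were adjusted by Benjamini-Hochberg over all genes, and genes were called under 0.01. SE was derived from the F statistic. The code was tested on simulated data. Alternatives were DESeq2 (1.42.0), its size factors, other filters and thresholds, fits of only the groups compared, a replicate block and leaving out each library.

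The members, gene lists and cell type markers were chosen with earlier results of these data known. The text names all C-type genes, the 3 members of highest CPM per cluster and, per comparison, at most 10 called members by size of change. Other members named for a comparison (Pcdhb9, Pcdhb22, Pcdha3 and Pcdhgb8 where not called, and Pcdha1, Pcdha3 and Pcdha5 between iHoxc9 and iHoxc10), and Ctcf, were chosen after their values were seen. Values of 3 libraries per group limit precision to the spread between them. Replicate numbers come from the labels. Deviations from the group means correlated between equally numbered libraries of iHoxc9 and iHoxc10 (r = 0.465, 0.423 and 0.537 over 13192 genes), and not in each pair of the other comparisons. No pair of libraries had identical counts. Exon lengths came from GENCODE, matched by Entrez identifier. No sequence is printed. The result of a glia marker is not reported here. The other assays of the study were not used here.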

Additional observations from a re-analysis of the deposited data

Results flagged for a closer look

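The iHoxc9 and iHoxc10 lines differed from each other in Pcdha2, with a log2 fold change of -1.45 for iHoxc9 against iHoxc10 (edgeR quasi-likelihood test, adjusted p = 0.00264; the adjusted p ranged up to 0.0203 over the alternatives; the lowest, 5.95e-22, came from the fit of these 6 libraries with a replicate block, in which 27.6% of all genes were called). Relative to the control neurons that both comparisons share, Pcdha2 had fitted changes of -0.45 ± 0.31 in iHoxc9 and 1.00 ± 0.30 in iHoxc10 (SE), neither of which was called.

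For 6 of the 58 members, every library of one iHox line lay above all control libraries and every library of another lay below them. The line below control was iHoxc6 in each case, and these differences were not tested. How many of all genes meet this rule was not counted, so the number of members cannot be set against a background. Pcdha10 lay below control in iHoxc6 and above it in iHoxc10, a difference of -0.57 in log2(CPM + 1) of the means. Pcdhac1 lay below control in iHoxc6 (0.21, 0.34 and 0.28 CPM, from 6 to 11 counts per library) and above it in iHoxc9, a difference of -0.65. Pcdhb9 lay below control in iHoxc6 and above it in iHoxc9, a difference of -0.52. None of these 3 genes was called in these lines against control. The other members were Pcdhb16 (at most 6.67 CPM in iHoxc6, 6.74 to 9.67 CPM in control and at least 13.2 CPM in iHoxc9 and iHoxc10), Pcdhb21 (at most 3.94, 4.01 to 4.66 and, in iHoxc9, at least 5.93 CPM) and Pcdhb14 (at most 2.405, 2.409 to 2.73 and at least 2.74 CPM in iHoxc9 and iHoxc10), chosen after their values were seen.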

How the results depend on the processing

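The 53 members called in control neurons against day 2 progenitors stayed within 1.5 times under every alternative (47 to 53; 39 with the fold threshold). With the fold threshold the count was 0 in iHoxc9, in iHoxc10 and for iHoxc9 against iHoxc10. By DESeq2's Wald test it was 2 in iHoxc8, 8 in iHoxc9 and 8 for iHoxc9 against iHoxc10. For the last comparison it was 9 in a fit of only these groups and 24 with the replicate block in that fit, an alternative chosen after seeing the data; that fit leaves few residual degrees of freedom. Leaving out 1 library gave 0 to 1 members in iHoxc6, 0 to 1 in iHoxc8, 0 to 8 in iHoxc9, 6 to 20 in iHoxc10 and 0 to 1 for iHoxc9 against iHoxc10. The highest count in iHoxc10 over all alternatives was 25. The replicate block in the fit of all libraries gave 18 members in iHoxc10 and 4 in iHoxc9. Between these groups and control, deviations from the group means did not correlate in each equally numbered pair. Summed Pcdhg in iHoxc6 was 210.0 CPM with DESeq2 size factors and 210.6 CPM with total counts, against 214.7 CPM. Day 2 members numbered 39 above 0.3 CPM and 46 with at least 3 counts in every library. Among named members, 53 of 1202 alternative values lost a call and 19 gained one, and none turned direction; the causes were not tested. Low counts limit Pcdha4 and Pcdhb1 throughout, and Pcdha1, Pcdha2, Pcdha3, Pcdha8, Pcdhac1, Pcdhb9 and Pcdhb13 at day 2.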
